A study of Homo sapiens with 6 samples.

Results

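The TGF-beta and activin genes described here are 10 genes picked by name: the ligand genes TGFB1, TGFB2 and INHBA, the receptor genes TGFBR1, TGFBR2 and TGFBR3, the latent binding protein genes LTBP1, LTBP2 and LTBP3, and the activin antagonist gene FST. All 10 were found among the 27914 genes of the table. RNA sequencing was done on MCF10A, an immortalised, non-tumorigenic human breast epithelial cell line. The 3 control libraries are labelled SCRin with a wild-type genotype, and the 3 others carry the genotype α-/-;βin. Both groups had been given doxycycline for 3 days. The series is titled after PI5P4K lipid kinases, so the Greek letters were taken to stand for those encoded by PIP4K2A and PIP4K2B. SCR and in are not spelled out in the labels, and no label says whether a line is 1 clone or whether replicates came from separate cultures. P-values therefore measure the spread between these libraries, which may be technical.

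TGF-beta is secreted as a latent complex in which the mature ligand stays bound to its own propeptide, and the latent binding proteins (LTBPs) tether that complex to the matrix until it is activated. The released ligand joins the type II receptor TGFBR2, which phosphorylates the type I receptor TGFBR1, and SMAD proteins carry the signal to the nucleus. Activin A is a dimer of the INHBA product, signals through its own receptors to the same SMADs, and is bound and blocked by follistatin, the FST product. In mammary epithelium these ligands are known for restraining proliferation and for promoting matrix production and mesenchymal traits.

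The label check came first. PIP4K2A stood at 20.6 ± 1.02 TPM in controls and 4.20 ± 0.132 TPM in α-/-;βin cells, and PIP4K2B at 21.8 ± 1.21 and 9.49 ± 1.83 TPM (SD, n = 3). TPM is a length-corrected abundance that sums to 1000000 in each library, so it keeps no record of depth. The basal epithelial markers KRT5, KRT14, TP63, LAMB3, ITGB4 and KRT17 summed to 1981 to 3521 TPM in controls and 2298 to 3253 TPM in α-/-;βin cells. Of these 6 basal genes none was called, against 2.19% of all tested genes, and the median log2 change was 0.51. The libraries of KRT5 and TP63 lay apart, higher in α-/-;βin cells (log2 change 0.54 and 0.72, limma adjusted p = 0.240 and 0.0664). The same held for 5.64% of all tested genes. LAMB3, the most abundant, had -0.36. The 5 luminal markers summed to 628 to 725 TPM in controls and 560 to 674 TPM in α-/-;βin cells, mostly from KRT18 and KRT8. GATA3 averaged 6.14 and 6.45 TPM, ESR1 did not exceed 0.167 TPM, and ELF5 was listed at 0 in all 6 libraries. Whether the changes of single basal markers have a part in the results that follow was not tested. The 6 fibroblast markers summed to 1.96 to 6.32 TPM in controls and 2.73 to 6.08 TPM in α-/-;βin cells, with COL3A1 listed at 0 in all 6 libraries. The 4 leukocyte markers summed to 42.9 to 47.5 TPM and 43.5 to 45.7 TPM, mostly from CD68, with PTPRC listed at 0 in all 6 libraries. CD14 lay higher in every α-/-;βin library, as did 5.64% of all tested genes, at 4.43 ± 1.69 against 8.12 ± 1.24 TPM (SD, n = 3, limma adjusted p = 0.264). In such bulk samples fewer cells of a type and less RNA per cell cannot be told apart.

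Of the 10 genes, 1 passed the test: LTBP1 rose 1.40-fold in α-/-;βin cells. The test was limma on log2(TPM + 1), with Benjamini-Hochberg adjustment over all 12096 genes that reached a mean of 1 TPM, and a threshold of 0.05. It called 2.19% of all tested genes, 0.364% higher and 1.83% lower. Of these 265 genes, 130 lay in a lowered stretch of chromosome 7 described below. FST, at a mean of 0.708 TPM, was below the filter, so 9 genes were tested. In 6 of the 9, the control and α-/-;βin libraries did not overlap, against 17.1% of all tested genes. The 10 genes were chosen with earlier results of these data known, so such shares describe them and test nothing. TGFB1, TGFBR2, LTBP1 and LTBP3 lay higher (5.64% of all tested genes did), and TGFB2 and INHBA lower (11.4%). The median log2 change of the 9 was 0.18, beside -0.01 over all tested genes.

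**Figure D1:**
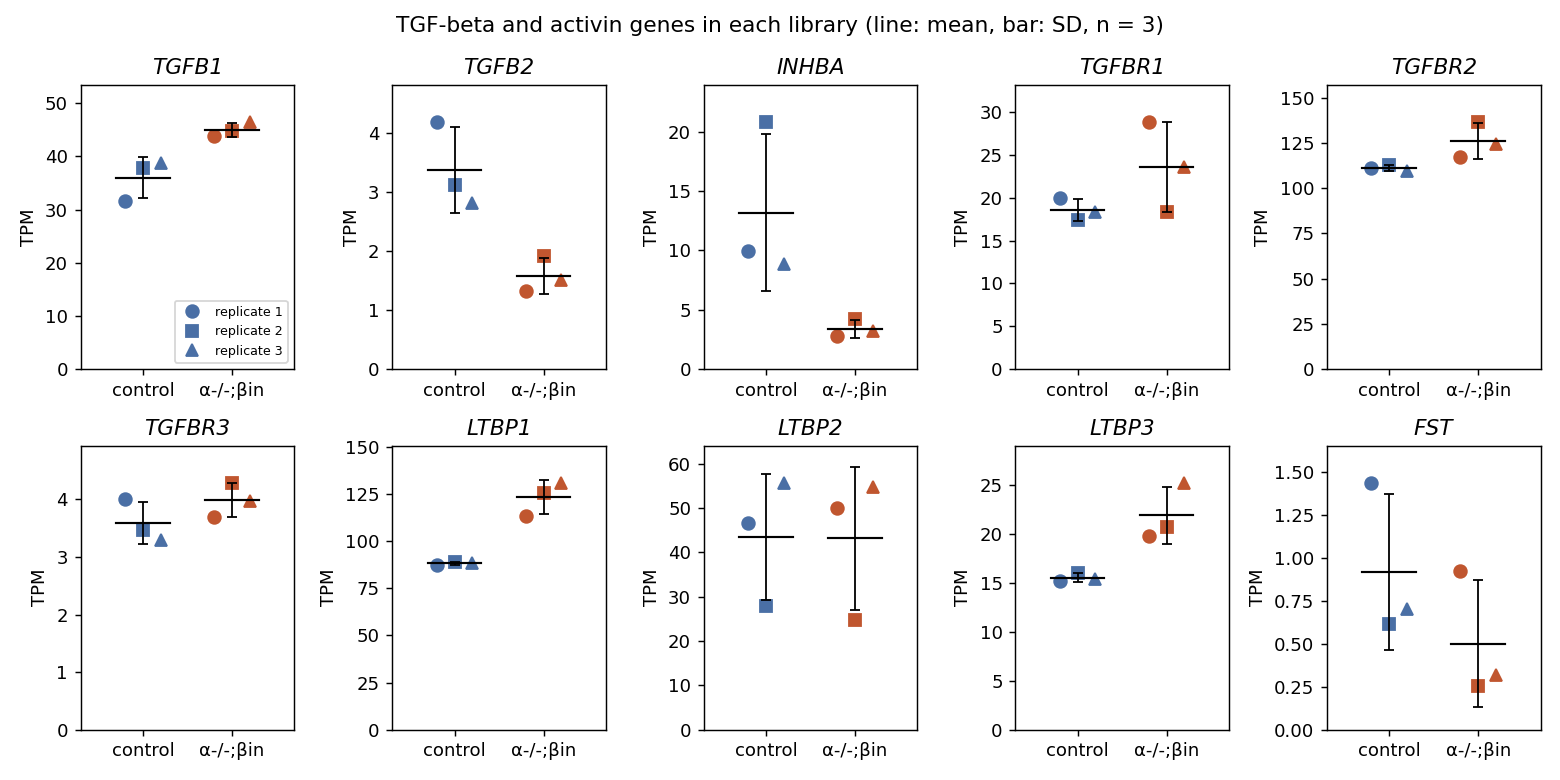
TPM of the 10 genes in each library, with 1 panel per gene and its own axis from 0. Symbols mark replicates 1 to 3, lines the group means and bars the SD (n = 3). The groups lie apart for TGFB1, TGFB2, INHBA, TGFBR2, LTBP1 and LTBP3, and both libraries numbered 2 are lowest for LTBP2.

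Among the ligands, INHBA had the lowest α-/-;βin level relative to control. INHBA, the activin A subunit, measured 9.91, 20.8 and 8.82 TPM in control replicates 1 to 3 and 2.76, 4.24 and 3.20 TPM in α-/-;βin replicates 1 to 3. Every α-/-;βin library lay below every control, and control replicate 2 stood well above the other controls. The α-/-;βin mean was 25.8% of the control mean. The log2 change was -1.61 (SE 0.31, 95% interval -2.35 to -0.87), and the limma adjusted p of 0.0587 missed the threshold. Only 0.628% of tested genes had a lower log2 change. Leaving out control replicate 2 brought the log2 change to -1.25 and the limma adjusted p to 0.0453. Leaving out any other single library gave a limma adjusted p from 0.0904 to 0.194, which did not pass. It did not pass with no filter (limma adjusted p = 0.139) or at a pseudocount of 5 (0.0925) either. INHBA-AS1, the antisense gene at this locus, was listed at 0 in all 6 libraries, so no TPM was assigned to it on either side of the comparison.

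TGFB2, a TGF-beta isoform that binds its type II receptor poorly without betaglycan, measured 4.18, 3.11 and 2.81 TPM in controls and 1.31, 1.91 and 1.50 TPM in α-/-;βin cells. The groups did not overlap, and the α-/-;βin mean was 46.8% of the control mean. The log2 change was -0.76 (SE 0.21, 95% interval -1.24 to -0.27, limma adjusted p = 0.178), which did not pass. TGFB2-AS1 was listed at 0 throughout, and TGFB2-OT1, a transcript named for the same locus, at 2.71 TPM in α-/-;βin replicate 1 and at 0 elsewhere.

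TGFB1, the main isoform in these cells, measured 31.5, 37.7 and 38.8 TPM in controls and 43.9, 44.7 and 46.5 TPM in α-/-;βin cells. All α-/-;βin libraries were above all controls, with a mean 1.25 times that of controls, yet the test was not passed (log2 change 0.32, SE 0.10, 95% interval 0.07 to 0.57, limma adjusted p = 0.276). TGFB3, the remaining isoform, stayed at or below 0.709 TPM in every library. TGFB1 made up 87.5% to 92.1% of the summed TPM of the isoforms in controls and 94.5% to 96.5% in α-/-;βin cells.

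The proportion of the isoforms was then compared within each library. The log2 ratio of TGFB1 to TGFB2 TPM was 2.92, 3.60 and 3.79 in controls and 5.07, 4.55 and 4.96 in α-/-;βin cells. The groups did not overlap. The difference was 1.42 (SE 0.31, exact two-sided permutation p = 0.1, the smallest that 3 libraries against 3 can give). Because TGFB1 lay higher and TGFB2 lower in every α-/-;βin library, this separation and its p were already fixed. The ratio is therefore no further evidence. It corresponded to about 10.8 TPM of TGFB1 per TPM of TGFB2 in controls and 29.0 in α-/-;βin cells, as geometric means. This ratio does not depend on how the libraries were scaled.

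**Figure D2:**
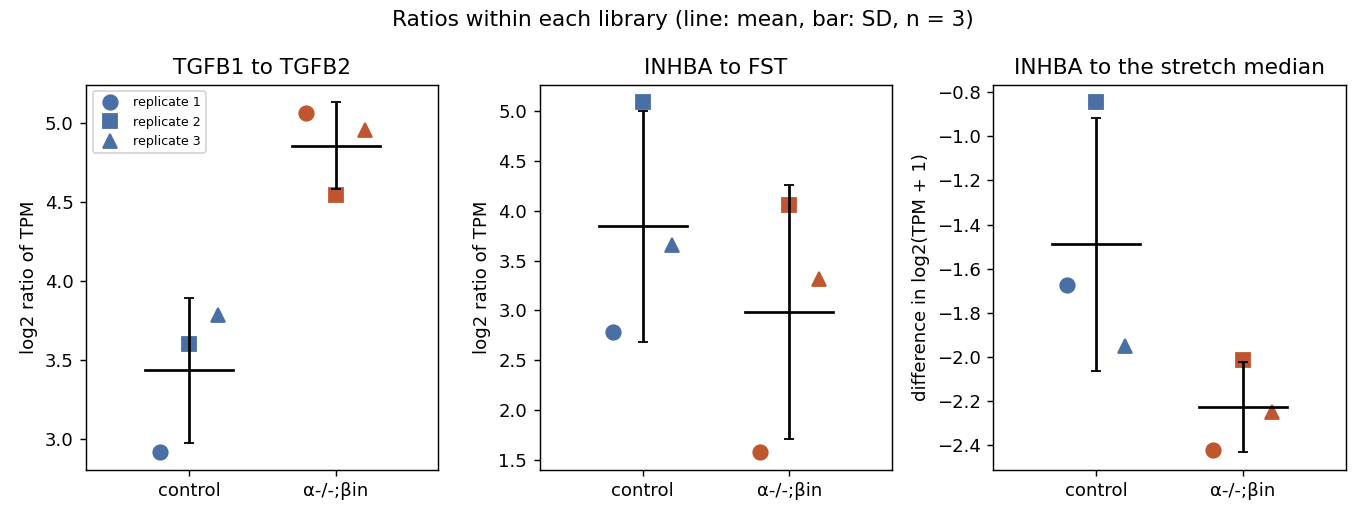
Ratios within each library: TGFB1 to TGFB2 and INHBA to FST as log2 ratios of TPM, and INHBA minus the median of its chromosome 7 stretch in log2(TPM + 1). Symbols mark replicates, lines the means and bars the SD (n = 3). The groups lie apart for TGFB1 to TGFB2 and for INHBA against its stretch, and overlap for INHBA to FST.

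The bases upstream of both lower-lying ligand genes are shown because their sequence was not used to pick them. They are the 250 bases before the RefSeq start, sense strand, in GRCh38.p14, which is not the build of the study's own processing (hg19, per the submitters' processing notes). TGFB2 lies at chr1:218345086-218345335 on the plus strand, and INHBA at chr7:41703091-41703340 on the minus strand. Capitals mark matches, on either strand, to the TEAD motif GGAATG (reverse complement CATTCC), the SMAD motif GTCTG (reverse complement CAGAC) or the AP-1 motif TGANTCA, which do not overlap each other here.
TGFB2: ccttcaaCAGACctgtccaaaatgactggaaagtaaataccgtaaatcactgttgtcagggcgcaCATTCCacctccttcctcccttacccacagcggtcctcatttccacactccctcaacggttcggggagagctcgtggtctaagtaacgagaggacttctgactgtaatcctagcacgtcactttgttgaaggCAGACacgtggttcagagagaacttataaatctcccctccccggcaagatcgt
INHBA: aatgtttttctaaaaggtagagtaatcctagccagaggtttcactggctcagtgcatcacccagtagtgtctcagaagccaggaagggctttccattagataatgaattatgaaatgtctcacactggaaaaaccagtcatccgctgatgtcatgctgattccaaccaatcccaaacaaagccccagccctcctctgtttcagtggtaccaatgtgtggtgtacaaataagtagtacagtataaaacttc
TGFB2 held 1 TEAD match that begins 185 bases before the start and 2 SMAD matches that begin 243 and 53 bases before it. INHBA held none in the bases shown and 1 SMAD match that begins at base 28 after the start. The INHBA window of 300 bases was AT-rich, with 43.3% G and C and 1 CpG, beside 51.7% and 14 CpGs for TGFB2 and a median of 58.3% over all promoters. Over all 27305 promoter windows of 300 bases, 14.1% held the TEAD motif, 45.0% the SMAD motif and 7.76% the AP-1 motif. Of the 10 genes described here, 1 held the TEAD motif (TGFB2), 5 the SMAD motif and 1 the AP-1 motif (FST). A match of so few letters describes the sequence and shows no binding.

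INHBA was the 1 gene of the 10 within a stretch of chromosome 7, from FAM20C through CHCHD2, where most genes were lower in α-/-;βin cells. The bounds of the stretch were chosen on these data. Its 198 tested genes had a median log2 change of -0.91, and 130 were called lower. INHBA, at -1.61, lay below the stretch median, and 3 genes of the stretch were lower still: the small nucleolar RNAs SNORA5A and SNORA9, and SCRN1. The 20 tested genes nearest to it in order ranged from -1.17 to 0.03 with a median of -0.93. The log2(TPM + 1) of INHBA minus the median of the other stretch genes was -1.67, -0.85 and -1.95 in controls and -2.42, -2.01 and -2.25 in α-/-;βin cells. The groups did not overlap, with a difference of -0.74 (SE 0.35, exact two-sided permutation p = 0.1, the smallest possible). Control replicate 2 carried much of it: without that library the difference was -0.42 (exact permutation p = 0.2). Without α-/-;βin replicate 1, 2 or 3 it was -0.64, -0.85 and -0.73, each also with an exact permutation p of 0.2.

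**Figure D3:**
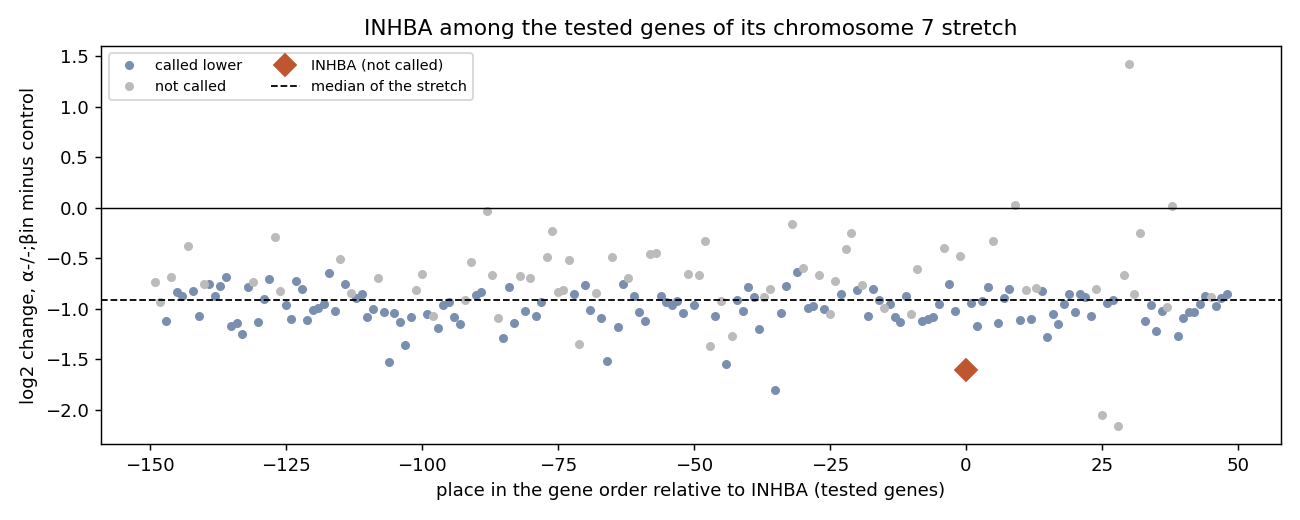
Log2 change of each tested gene of the chromosome 7 stretch against its place in the gene order relative to INHBA. Each point is a gene, the diamond is INHBA and the dashed line is the stretch median. INHBA, at -1.61, lies below the median of -0.91.

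None of the other 9 genes had such neighbours. For each, the 5 tested genes on either side had a median log2 change between -0.13 (around TGFBR1) and 0.07 (around TGFBR2), and 0 of them were called. Around LTBP1 the neighbours lay between -0.08 and 0.03. Around INHBA the median of the 10 neighbours was -0.85, and 7 of them were called lower. TGFBR2 lies on chromosome 3, which also has a lowered stretch in these data, but outside it.

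The receptors passed no test. TGFBR2, the type II receptor and the most abundant of the 10 genes, measured 111, 113 and 109.6 TPM in controls and 117, 137 and 124 TPM in α-/-;βin cells. The α-/-;βin libraries were all above the controls, by 1.13 times on average (log2 change 0.18, SE 0.09, 95% interval -0.03 to 0.38, limma adjusted p = 0.503). TGFBR1, the type I receptor, measured 19.9, 17.4 and 18.3 TPM in controls and 28.9, 18.4 and 23.6 TPM in α-/-;βin cells, where replicate 2 lay within the control range. Its log2 change was 0.31 (SE 0.16, 95% interval -0.08 to 0.70, limma adjusted p = 0.543), 0.16 without α-/-;βin replicate 1 and 0.48 without α-/-;βin replicate 2. TGFBR3, or betaglycan, a coreceptor that presents TGF-beta to the type II receptor, measured 3.29 to 4.00 TPM in controls and 3.70 to 4.29 TPM in α-/-;βin cells. These ranges overlapped (log2 change 0.12, 95% interval -0.23 to 0.48, limma adjusted p = 0.843). TGFBR2 exceeded TGFBR1 by a factor of 6.02 ± 0.465 in controls and 5.59 ± 1.71 in α-/-;βin cells (SD, n = 3).

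The latent binding proteins held the 1 call. LTBP1 measured 87.6, 89.1 and 88.3 TPM in controls and 113.5, 125 and 131 TPM in α-/-;βin cells. The controls lay close together, and every α-/-;βin library was above them. LTBP1 rose with a log2 change of 0.47 (SE 0.08, 95% interval 0.27 to 0.67, limma adjusted p = 0.0414). The call was lost whenever any 1 of the 6 libraries was left out (limma adjusted p 0.0618 to 0.186), while the log2 change stayed between 0.43 and 0.53. LTBP1 had a within-group SD of 0.07 on the log2(TPM + 1) scale, and 7.62% of tested genes had a smaller one.

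The bases before the LTBP1 start are shown as those of the 1 called gene, at chr2:32946703-32946952 on the plus strand of GRCh38.p14, from RefSeq, with capitals as above.
LTBP1: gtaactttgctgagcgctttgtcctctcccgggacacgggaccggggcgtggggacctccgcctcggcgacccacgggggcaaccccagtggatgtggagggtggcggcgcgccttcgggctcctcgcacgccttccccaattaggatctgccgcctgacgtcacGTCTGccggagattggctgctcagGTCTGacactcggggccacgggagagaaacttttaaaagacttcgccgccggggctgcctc
It held 2 SMAD matches, which begin 85 and 61 bases before the start, and no TEAD or AP-1 match. Its window had 68.7% G and C and 33 CpGs.

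LTBP3, which binds latent TGF-beta as LTBP1 does, measured 15.1, 16.0 and 15.3 TPM in controls and 19.8, 20.7 and 25.2 TPM in α-/-;βin cells. Its size of change was close to that of LTBP1, at 1.41 times the control mean, and its groups did not overlap. It did not pass (log2 change 0.47, SE 0.12, 95% interval 0.19 to 0.74, limma adjusted p = 0.131). LTBP2, a family member of elastic fibres that does not bind latent TGF-beta, measured 46.7, 27.9 and 55.7 TPM in controls and 50.0, 24.8 and 54.7 TPM in α-/-;βin cells. The group means were nearly equal, at 43.5 and 43.2 TPM, and both libraries numbered 2 were lowest (log2 change -0.03, SE 0.35, 95% interval -0.87 to 0.80, limma adjusted p = 0.989). Its within-group SD of 0.56 on the log2 scale exceeded that of 94.4% of tested genes. The interval of LTBP2 spans the estimates for LTBP1 and LTBP3, and a difference between these family members was not tested. LTBP4, chosen after its values were seen, lay lower in every α-/-;βin library, at 8.16 ± 0.0888 against 6.48 ± 0.692 TPM (log2 change -0.30, limma adjusted p = 0.411). The 4 LTBP genes together summed to 155 ± 13.2 TPM in controls and 195 ± 21.1 TPM in α-/-;βin cells (SD, n = 3).

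FST, the activin antagonist, was the lowest of the 10. It measured 1.44, 0.614 and 0.700 TPM in controls and 0.924, 0.254 and 0.320 TPM in α-/-;βin cells, and the groups overlapped. In a fit with no filter its log2 change was -0.36 (SE 0.23, 95% interval -0.93 to 0.21, limma adjusted p = 0.715). The log2 ratio of INHBA to FST was 2.79, 5.08 and 3.65 in controls and 1.58, 4.06 and 3.32 in α-/-;βin cells. It overlapped between the groups (difference -0.86, SE 0.99, exact two-sided permutation p = 0.5). INHBA exceeded FST in all 6 libraries. FSTL3, a follistatin relative that also binds activin and was chosen after its values were seen, was far higher, at 214 ± 53.0 and 178 ± 59.3 TPM (limma adjusted p = 0.787).

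**Figure D4:**
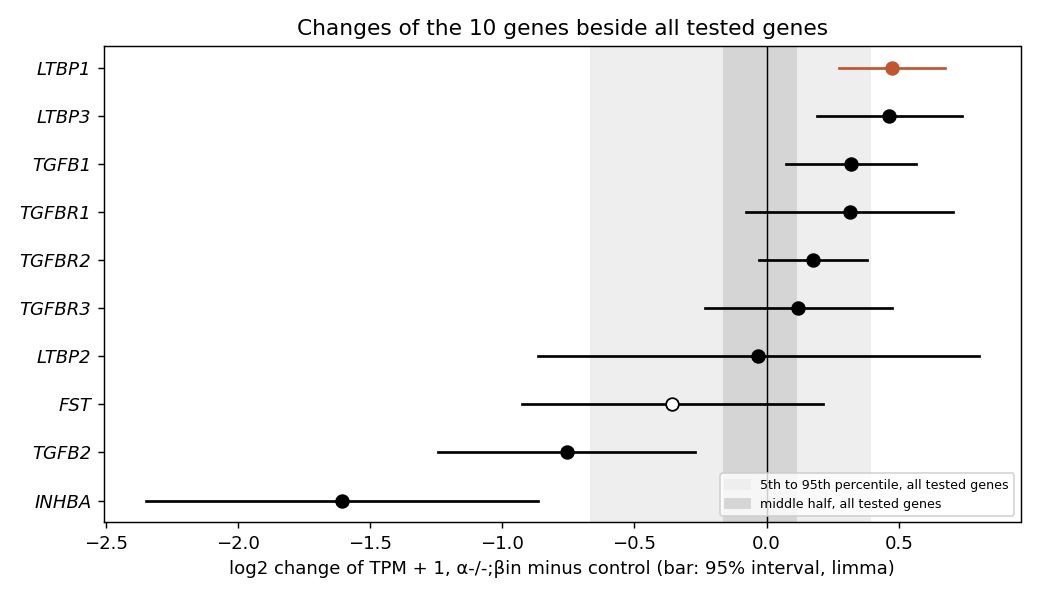
Log2 change of TPM + 1, α-/-;βin minus control, for the 10 genes, with the limma 95% interval. Grey bands show where all tested genes fall, and the open circle is FST from the fit with no filter. LTBP1, in colour, is the 1 called gene, while INHBA has the lowest estimate and the interval -2.35 to -0.87.

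In TPM, which allows genes to be ordered by level, the controls ran TGFBR2, LTBP1, LTBP2, TGFB1, TGFBR1, LTBP3, INHBA, TGFBR3, TGFB2 and FST from high to low. The ranges of neighbours in this order overlapped for LTBP2 and TGFB1, for LTBP3 and INHBA, and for TGFBR3 and TGFB2. In α-/-;βin cells INHBA stood eighth, below TGFBR3, with overlapping ranges. LTBP1 (123 ± 8.92 TPM) reached the level of TGFBR2 (126 ± 9.89 TPM) there, and their ranges overlapped, whereas in controls every library had TGFBR2 above LTBP1.

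The genes most like LTBP1 across the 6 libraries, by Pearson correlation of log2(TPM + 1) among 9720 genes averaging 5 TPM or more, were CDC37L1-DT (r = 0.9996), EIF5AL1 (r = 0.995) and SRGN (r = 0.995). With 6 libraries in 2 groups, such values follow mostly from the gap between the groups. Every control listed the noncoding CDC37L1-DT at 0. SRGN, the proteoglycan serglycin, rose (log2 change 3.60, limma adjusted p = 0.00609). EIF5AL1, a copy of the translation factor gene EIF5A with which it may share reads, had a log2 change of 0.21 (limma adjusted p = 0.478).

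The rest of the pathway gave no call. In 5 lists written from general knowledge, 91 further genes were in the table and 66 were tested. Of these 0 were called by limma (2.19% of all tested genes were), 7 had an unadjusted p under 0.05 (11.9% of all tested genes did), and the median log2 change was -0.02. The libraries did not overlap for 1 gene that lay higher and 7 that lay lower, where all tested genes had shares of 5.64% and 11.4%. The shares over all tested genes include the lowered stretches. Of the 265 genes called, 130 lay in the chromosome 7 stretch, and a fit without stretch genes called 43.

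Of 15 other superfamily ligands, 4 were tested, with a median log2 change of 0.61. GDF15, a stress-induced ligand, had the highest mean over the 6 libraries, though BMP6 and BMP2 exceeded it in the control means. It measured 2.84, 7.85 and 0.948 TPM in controls and 9.81, 21.5 and 6.63 TPM in α-/-;βin cells (log2 change 1.60, SE 0.60, limma adjusted p = 0.353). The groups overlapped. INHBB, the other main activin subunit, did not exceed 0.219 TPM. INHBA held 85.4% to 100% of the summed activin and inhibin subunit TPM, lowest in α-/-;βin replicate 2, where INHA and INHBE were at 0.379 and 0.248 TPM.

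Of 12 other receptors, 8 were tested, with a median of -0.13. ENG, or endoglin, the most highly expressed, measured 34.8 ± 8.93 and 28.8 ± 3.67 TPM (SD, n = 3, limma adjusted p = 0.733). The activin receptors ACVR1B, ACVR2A and ACVR2B and their relative ACVR1 were chosen after their values were seen. ACVR1 measured 21.4 ± 0.727 and 18.6 ± 2.08 TPM (SD, n = 3), and ACVR2B averaged 0.735 and 1.12 TPM and was below the filter. ACVR1B measured 5.53 to 9.27 TPM in controls and 7.50 to 8.97 TPM in α-/-;βin cells, and ACVR2A 1.88 to 4.40 and 3.20 to 3.61 TPM.

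Of 19 other binders, anchors and activators, 13 were tested, with a median of -0.07. THBS1, or thrombospondin-1, an activator of latent TGF-beta, measured 445, 310 and 473 TPM in controls and 295, 195 and 297 TPM in α-/-;βin cells. The groups did not overlap, and the test was not passed (log2 change -0.64, SE 0.22, limma adjusted p = 0.299). FBN1, a fibrillin to which LTBPs attach, and FSTL1, a follistatin-like protein, were chosen after their values were seen. Both lay lower in every α-/-;βin library, at 3.52 ± 1.19 against 1.41 ± 0.457 TPM and at 53.7 ± 12.8 against 23.97 ± 7.01 TPM (SD, n = 3). Their limma adjusted p values were 0.214 and 0.0979. FBN2, a more abundant fibrillin of the same list, measured 35.1 ± 7.31 TPM in controls and 35.1 ± 6.59 TPM in α-/-;βin cells (SD, n = 3, limma adjusted p = 0.998).

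Of 21 SMADs and regulators, 20 were tested, with a median of -0.01. STRAP, a receptor-associated protein and the most highly expressed, measured 362 ± 37.8 and 336 ± 37.6 TPM (limma adjusted p = 0.823). SMAD2, SMAD3 and SMAD4, which carry the TGF-beta and activin signal and were picked after seeing their values, had log2 changes of 0.01, -0.20 and -0.02. Their limma adjusted p values were 0.711 to 0.992.

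Of 24 usual TGF-beta target genes, 21 were tested, with a median of -0.02. TGFBI, a secreted matrix protein and the most highly expressed, measured 4046, 3525 and 6778 TPM in controls and 3746, 2103 and 4857 TPM in α-/-;βin cells (limma adjusted p = 0.711). The groups overlapped. MMP2, a matrix metalloprotease picked after seeing its values, measured 7.14, 2.79 and 6.72 TPM in controls and 1.44, 0.443 and 1.07 TPM in α-/-;βin cells. The groups did not overlap, and the test was not passed (log2 change -1.68, SE 0.36, limma adjusted p = 0.0764). Other targets, also picked after seeing their values, had log2 changes above 0 with overlapping groups. The list does not separate targets that TGF-beta raises from those it lowers, so these signs give no direction of signalling. FN1 and TAGLN had log2 changes of 0.91 and 0.63 (limma adjusted p = 0.591 and 0.383). ID1, ID2 and ID3 had 0.49, 0.63 and 0.51 and did not pass. As for LTBP2, both libraries numbered 2 were lowest for PMEPA1, a feedback inhibitor of the SMAD list chosen after its values were seen, with 82.5 and 48.2 TPM there and 164 to 225 TPM in the others. The spread between replicates of one group thus exceeded the gap between the group means for both genes. Without both libraries numbered 2, an alternative chosen after seeing the data, 7 of the 9 tested genes had groups that did not overlap, against 38.9% of all tested genes.

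**Figure D5:**
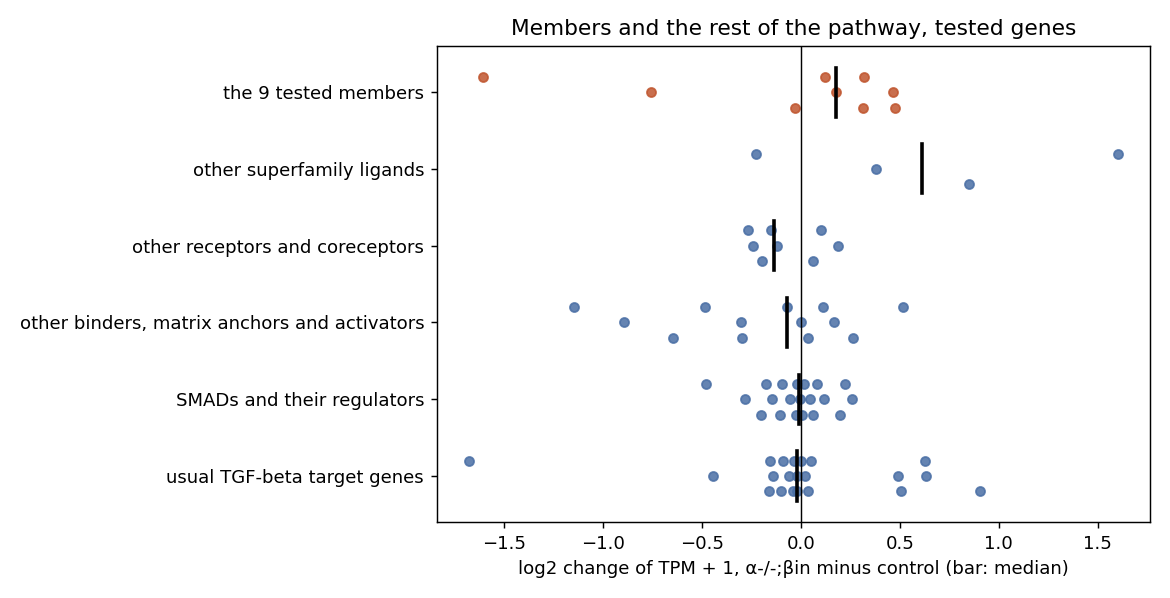
Log2 change of TPM + 1, α-/-;βin minus control, for the 9 tested genes described here and for the tested genes of 5 further pathway lists. Each point is a gene and each bar a median. The medians of the SMAD and target lists lie at -0.01 and -0.02.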

How the data were processed

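The authors deposited 1 table of TPM for 27914 genes named by symbol, with 1 column for each of the 6 samples; each column sums to 1000000. Genome build hg19 and DESeq2 are named, without a role, in the submitters' processing notes. Not given in the sources used here are the aligner, the quantifier, the annotation, strandedness and filters, and depth is unknown. Control columns were matched by name and replicate number, and columns headed as the experiment were taken as the α-/-;βin samples of the same number.

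TPM was transformed to log2(TPM + 1), which understates changes of low genes. The test was limma 3.58.1 (R 4.3.3), two-sided, on the 12096 genes averaging 1 TPM or more, with a mean-variance trend and Benjamini-Hochberg adjustment. The procedure was also run on simulated data with independent noise and changes placed at random. These data hold lowered stretches and may share structure by replicate number, so that run cannot bear on the calls. Ratios were compared by exact permutation. Gene order and promoters came from RefSeq (GRCh38.p14); 27004 symbols matched, and all 10 genes had a promoter window. No protein sequences were compared.

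By rule, named genes were the 10, the targeted genes, the member of each further list with the highest mean over all libraries (none passed), and the 3 genes most like each called gene. Markers and genes that complete a family or stood out are named besides, chosen after their values were seen. The genes, lists and stretch bounds were chosen with earlier results of these data known.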

Additional observations from a re-analysis of the deposited data

How the results depend on the processing

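Across 16 alternative fits, TGFB1, TGFB2, TGFBR1, TGFBR2 and TGFBR3 kept their direction and stayed short of the threshold wherever they were tested. The number of called genes among the 10 was 1 in the main analysis, 2 at a pseudocount of 0.1 and 2 without short RNA genes (INHBA joined, limma adjusted p = 0.0434 and 0.0346). It was 0 without the genes of the lowered stretches (LTBP1 log2 change 0.45, limma adjusted p = 0.130, INHBA not in the test). With the same scaling but the stretch genes kept in the test, an unplanned alternative, it was 1 (LTBP1 log2 change 0.45, limma adjusted p = 0.0498). It was 0 with no mean-variance trend (LTBP1 limma adjusted p = 0.0798). It was 0 to 1 with single libraries left out. Over all tested genes, 265 were called, 43 without the stretch genes, and 106 to 219 with single libraries left out, lowest without control replicate 3, then 119 without α-/-;βin replicate 3. The log2 change of LTBP2 ran from -0.31 to 0.32 with single libraries left out. It changed sign to 0.05 without control replicate 1, 0.17 without control replicate 3 and 0.32 without α-/-;βin replicate 2. The cause was not tested.

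With the replicate number as a block, 881 genes were called, 3 of them among the 10: LTBP1 (limma adjusted p = 0.0102), LTBP3 (0.0499) and INHBA (0.00824). Deviations from the group means correlated at 0.25, 0.27 and -0.02 for numbers 1, 2 and 3. Control replicate 1 and α-/-;βin replicate 2 correlated at -0.24, and control replicate 2 and α-/-;βin replicate 1 at -0.29. Replicate 3 of neither group correlated best with its own number. Deviations within a group cancel out, so these values depend on each other and cannot decide whether the numbers are pairs. The main test did not treat the labels' numbers as pairs. The differences in the ratios of TGFB1 to TGFB2 (1.16 to 1.60), INHBA to FST (-1.39 to -0.15) and INHBA to its stretch (-0.97 to -0.42) kept their direction with each library left out. INHBA differed by -0.49 from its 20 nearest stretch genes and by -0.69 from stretch genes of at least 20 TPM. Permuted within replicate numbers, these ratios gave an exact p of 0.25, the smallest possible. TPM keeps no depth, so the counting error of low genes such as FST and TGFB2 is unknown.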
